A study of Mus musculus with 20 samples.

Results

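The sites described here are the 998 of 9983 measured m6A sites at which the modified fraction of mouse heart RNA gave the least signal for the amount of input RNA. A site counted as measured when at least 5 of the 10 arrays had its probe well above background (detected) in both colours, which 9983 of the 14319 single-site probes were and 4336 were not. For each array the log2 ratio of modified to input signal was centred on the median of the measured sites. The ratio was then averaged over all 10 mice regardless of genotype, and the lowest 10% of sites were taken. Because this ratio chose the sites, their low ratios, their high input and their low modified signal are a description and carry no test. The difference between genotypes played no part in the choice and was tested.

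RNA came from the myocardium of 10 male mice that had received no treatment. Of these, 5 lacked natriuretic peptide receptor A (NPRA-/-, here KO 1 to KO 5) and 5 were wild type (NPRA+/+, here WT 1 to WT 5). The knockout line is conditional (NprAflox/flox), and the series title places the deficiency in the heart. The Cre driver, the age and the strain of the mice are not given in the sources used here. NPRA is the membrane receptor for the atrial and B-type natriuretic peptides and makes cyclic GMP. The probes carry vendor identifiers, and 0 of the 998 were found in the gene table used here. The genes, positions and sequences of the sites, the level of the targeted gene and markers of the myocardium were therefore not analysed here.

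N6-methyladenosine (m6A) is the most common internal mark of messenger RNA; it is written by a complex around METTL3 and METTL14, can be removed by FTO or ALKBH5, and is read by YTH-domain proteins that affect splicing, translation and decay. The array assay reads single sites with the bacterial enzyme MazF, which cuts RNA at ACA when the adenosine carries no methyl group. RNA left whole by MazF and then bound by an m6A antibody was labelled with Cy5 and is called the modified RNA, while undigested RNA of the same mouse was labelled with Cy3 and is called the input. In this assay a transcript that is abundant but seldom methylated at the probed adenosine is meant to give a strong input signal and a weak modified signal. The dyes were never swapped, so the enrichment and the dye cannot be told apart, and a ratio ranks sites on an array without giving the share of molecules that are methylated.

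The low-ratio sites spanned mean log2 ratios from -5.92 to -2.06 relative to the array median, with a median of -2.61. In linear terms they lay 4.18- to 60.4-fold below the median site, with a median of 6.09-fold. The distribution was steep at its end. Only 2 sites had a mean ratio below -5, another 43 lay between -5 and -4, and 219 lay between -4 and -3. A further 302 sites fell between -3 and -2.5, and 432 lay between -2.5 and the limit.

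The site with the lowest mean ratio was ASMM10m6ADRACA1002301994. Its log2 ratio was -5.03, -4.64, -6.68, -5.95 and -6.10 in KO 1 to KO 5 and -6.48, -5.93, -6.89, -5.69 and -5.77 in WT 1 to WT 5. KO 1 and KO 2 held the highest ratios, WT 3 the lowest, and the genotypes overlapped. Its input signal stood at the 98.3rd percentile of the measured sites and its modified signal at the 66.1st, both well above background in all 10 mice. The low ratio went with a high input and a middling modified signal, not with an undetected one.

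ASMM10m6ADRACA1002215444 was the next lowest, at 54.3-fold below the median site. Its ratio was -4.07, -4.01, -6.52, -6.04 and -6.12 in the KO mice and -6.18, -6.36, -7.24, -5.93 and -5.16 in the WT mice. KO 1 and KO 2 stood apart from the other 8 mice, and the SD over mice of 1.05 was the largest among the 998 sites. The spread lay in the modified RNA. Its scaled Cy5 level (log2, array 75th percentile at 0) was 4.55, 4.56, 1.64, 2.46 and 1.90 in KO and 2.52, 1.92, 1.23, 2.16 and 2.86 in WT. The scaled input ran only from 8.36 to 9.09 over the 10 mice.

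After it came ASMM10m6ADRACA1004415474, with ratios of -4.14, -3.72, -5.80, -5.00 and -5.00 in KO and -5.07, -5.11, -5.74, -5.09 and -4.41 in WT. KO 1 and KO 2 were again highest, with KO 3 and WT 3 lowest. Its input was at the 94.5th percentile. Cy5 was detected in 5 of 5 KO mice and in 4 of 5 WT mice.

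The limit cut through a dense part of the distribution. Just inside it, ASMM10m6ADRACA1003180534 and ASMM10m6ADRACA1000123684 both had a mean of -2.06, and just outside it ASMM10m6ADRACA1000262904 and ASMM10m6ADRACA1001757134 had means that round to the same -2.06. These 4 sites were each in the lowest 10% of 4, 2, 4 and 4 mice, in that order. The last of them had ratios of -1.96, -1.72, -2.07, -2.34 and -1.86 in KO and -2.36, -2.08, -2.23, -1.74 and -2.27 in WT, which cross the limit from mouse to mouse.

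Sites that were low on average were low in each mouse. All 998 lay below the array median in every mouse, apart from 1 site without a value in KO 2, where its spot was flagged as an outlier. These ratios include spots whose Cy5 was not detected on that array. In WT 4 and WT 5, Cy5 was detected at only 58.3% and 51.0% of the sites. In KO 1 to KO 5, 84.1%, 80.7%, 86.5%, 87.0% and 87.5% of the sites fell in that mouse's own lowest 10%. In WT 1 to WT 5 the shares were 83.7%, 82.4%, 89.5%, 80.5% and 76.6%. WT 5, WT 4 and KO 2 held the lowest of these shares. In all 10 mice together, 474 sites stayed in the lowest 10%, 600 did so in at least 9 mice and 943 in at least 5, and no site did so in fewer than 2.

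The choice carried over to mice whose ratios had no part in it, though all 10 arrays set which sites counted as measured. When the lowest 10% was chosen on 9 mice, between 74.9% (WT 5) and 88.0% (WT 3) of the chosen sites fell in the lowest 10% of the mouse left out. When it was chosen on the 5 KO mice alone, 872 of 998 sites (87.4%) were also in the lowest 10% of the WT mean, and a choice on WT alone gave 872 of 998 (87.4%) in KO. Arrays that share a scan date are called a slide here. A choice on the 8 arrays of slide 1 placed 824 of 998 sites (82.6%) in the lowest 10% of the 2 arrays of slide 2. Among the measured sites, the low end of the ratio was thus largely shared by both genotypes and both slides. On slide 2 this includes many sites whose Cy5 was not detected there, so their low ratio is not a measured one.

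The depth of the low end differed between mice. The median ratio of the 998 sites was -2.25, -2.08, -2.91, -2.71 and -2.62 in KO 1 to KO 5 and -2.68, -2.72, -3.04, -2.61 and -2.60 in WT 1 to WT 5. KO 2 and KO 1 were the shallowest and WT 3 and KO 3 the deepest, so the genotypes overlapped, with means of -2.51 ± 0.34 (SD, n = 5) for the KO mice and -2.73 ± 0.18 (SD, n = 5) for the WT mice. At 717 of the 998 sites (71.8%) the highest ratio of the 10 mice was in KO 1 or KO 2, against 27.5% of all measured sites. At 580 sites (58.1%) the lowest was in KO 3 or WT 3, against 30.5% of all measured sites. The SD of all ratios on an array was 1.40 in KO 1 and 1.45 in KO 2, 1.56 in KO 3 and 1.69 in WT 3. WT 1 had an SD of 1.45 as well, with a median of -2.68 at the low-ratio sites, so a narrow spread did not always go with a shallow low end. Dividing each array by its spread kept 994 of the 998 sites.

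**Figure D1:**
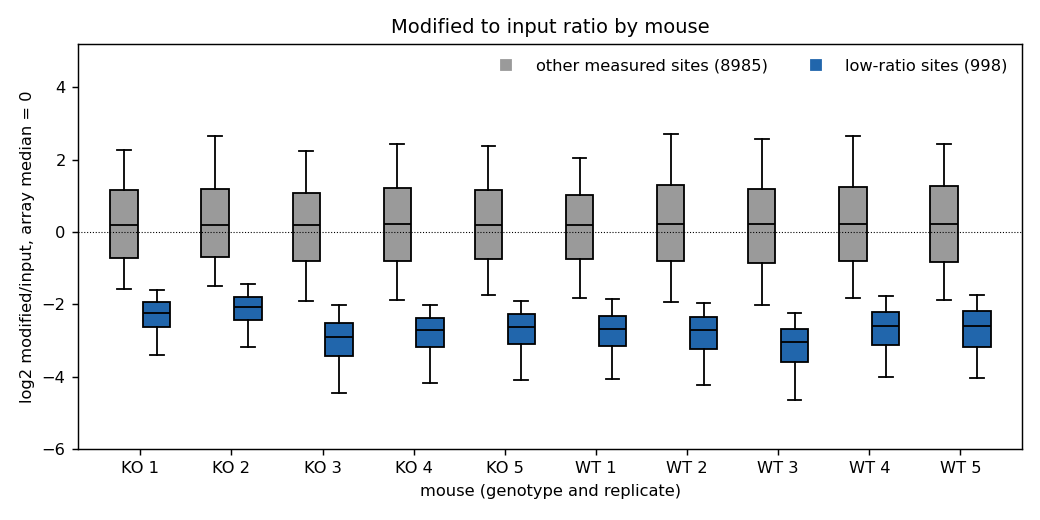
Log2 modified/input ratio (vertical axis, array median at 0) of the 998 low-ratio sites in blue and the other 8985 measured sites in grey, for each of the 10 mice. Boxes span the quartiles with the median as a line, and whiskers reach the 5th and 95th percentiles; the blue medians run from -3.04 in WT 3 to -2.08 in KO 2.

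The plot of ratios by mouse shows the blue boxes of KO 1 and KO 2 short and high and those of KO 3 and WT 3 lowest, while the grey boxes differ less.

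The low ratios went with high input more than with little modified RNA. The median low-ratio site stood at the 82.7th percentile of input among measured sites, with a range from 41.0 to 99.99, and at the 40.4th percentile of modified RNA. With the measured sites split into deciles of input, the 4 lowest held no low-ratio site, the fifth held 15, and the counts then rose through 77, 129, 206 and 264 to 307 in the highest. Across the deciles of modified RNA the counts changed less, from 155 in the lowest to 66 in the highest. In signal units the median input of the low-ratio sites was 1752 to 4525 over the 10 mice, against 443 to 850 for the measured sites. The median Cy5 intensity was 286 to 757 for the low-ratio sites and 441 to 903 for the measured sites.

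Part of this pattern is built into the choice. A site must exceed background in both channels to count as measured, so at the same Cy5 signal a site far below the median ratio has more input than one at the median. Over the 9983 sites the mean ratio correlated with the scaled input at Pearson r = -0.40 and with the scaled Cy5 at r = 0.32; each ratio contains both signals, and these values are given as a description. Among the 479 low-ratio sites detected in both channels in all 10 mice, the median input percentile was 91.6 and the median ratio -2.58. Among the 519 detected on 5 to 9 arrays the medians were 72.1 and -2.62. The median percentile of modified RNA was 68.2 for the 479 sites and 18.8 for the 519. At the 519 sites the low ratio thus went with little modified RNA as well as with raised input.

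**Figure D2:**
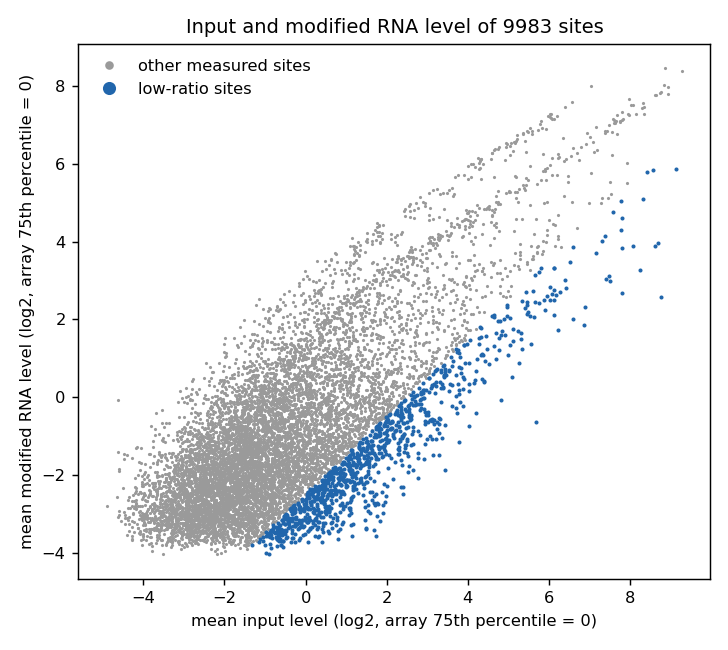
Mean scaled level of modified RNA (vertical) against mean scaled input (horizontal) for 9983 sites, both in log2 units with the array's 75th percentile at 0 and averaged over 10 mice. The 998 low-ratio sites in blue form the lower right edge of the cloud, from an input of -1.31 up to 9.14.

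The plot of the levels shows that the edge is sharp because the sites were cut along it, and that it extends to the most abundant inputs on the array. The brightest input among the low-ratio sites was that of ASMM10m6ADRACA1004661334, with a scaled input of 9.30, 9.13, 8.82, 9.46 and 8.80 in KO and 9.36, 9.34, 9.06, 8.98 and 9.16 in WT. Its modified RNA was also bright, at the 98.8th percentile, and its ratio was -2.46, -2.08, -3.07, -3.39 and -3.08 in KO and -2.98, -3.22, -3.40, -2.50 and -2.36 in WT. The input values overlapped between genotypes, and KO 2 held the highest ratio. No low-ratio site was saturated on any array in either channel.

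The low end was also present before dye normalization, when the low-ratio sites lay 2.11 to 2.97 log2 units below the measured sites on the 10 arrays, and 894 of the 998 were again in the lowest 10%. The sites were spread evenly down the array. In 4 equal bands of spot rows from top to bottom they made up 10.7%, 9.27%, 9.95% and 10.0% of the measured sites. Probes that are no single-site probes also reached the limit of -2.06. At or below it were 8 of 33 measured control probes, 5 of 18 positive controls and 4 of 19 probes with an A_51_P suffix, and none of 65 spike-in probes, whose median was 0.95.

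The ratio of the low-ratio sites had a wider spread over mice than that of all measured sites, and the wider spread was in the modified RNA. The SD over 10 mice had a median of 0.46 (0.16 to 1.05) at the low-ratio sites and 0.37 over all measured sites. For scaled Cy5 the medians were 0.50 and 0.42, and for scaled input 0.24 and 0.23. The Cy5 median was 0.46 at the 479 sites detected in both channels in all 10 mice and 0.54 at the other 519. For the ratio these medians were 0.45 and 0.47. These differences were not tested, since the choice used the same values.

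The steadiest site was ASMM10m6ADRACA1001020594, with a ratio of -2.41, -2.40, -2.55, -2.50 and -2.57 in KO and -2.75, -2.32, -2.69, -2.27 and -2.65 in WT. Its 10 values lay within a range narrower than 0.5 log2 units and overlapped between genotypes. ASMM10m6ADRACA1004154304 followed, with a ratio of -2.78, -2.39, -3.02, -2.77 and -2.77 in KO and -2.74, -2.70, -3.08, -2.86 and -2.75 in WT. Both sites were in the lowest 10% in all 10 mice.

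Detection of the modified RNA at these sites differed between mice and was lowest on slide 2. Cy5 was well above background at 99.4%, 99.1%, 92.5%, 83.5% and 99.4% of the low-ratio sites in KO 1 to KO 5 and at 98.2%, 75.7%, 98.4%, 58.3% and 51.0% in WT 1 to WT 5. WT 4 and WT 5, the only arrays on slide 2, were lowest, followed by WT 2. KO mice averaged 94.8% ± 6.97 (SD, n = 5) and WT mice 76.3% ± 22.0 (SD, n = 5), with 90.7% over the 3 WT mice on slide 1. Cy5 was detected in more KO than WT mice at 501 low-ratio sites and in more WT than KO mice at 4, and the numbers were equal at 493. Over all measured sites the same held to a smaller extent, with 38.2% detected in more KO mice and 1.25% in more WT mice against 50.2% and 0.401% here. In WT 4 and WT 5 only 68.5% and 64.5% of all measured sites were detected in Cy5. Each site was detected in at least 1 mouse of each genotype, and the input was well above background in all 10 mice at 997 of the 998.

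The first comparison asked whether the ratio of the low-ratio sites differed between KO and WT hearts. No site passed. Of the 998 sites, 0 had a limma adjusted p under 0.05, beside 0% of the 10053 probes tested. At an unadjusted p under 0.05 there were 84 low-ratio sites (8.42%), 73 higher and 11 lower in KO, beside 9.01% of all probes in either direction, 4.17% higher and 4.84% lower. KO and WT values did not overlap at 7 sites, all higher in KO (0.701%), beside 0.547% of all probes. For values wholly lower in KO the count was 0, beside 1.04%.

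The median log2 change of the ratio was 0.26 at the low-ratio sites and 0.06 over all probes tested. It was positive in 21 of 24 other settings, from 0.07 to 0.35, and negative in 3. It was 0.33 within slide 1 and 0.11 when each array was divided by its spread. Of the negative values, that without KO 1 and KO 2 was -0.02. With normexp background correction and an offset of 50 it was -0.18, and with a block for slide and array row it was -0.09. That last value rests on KO 3 against WT 1 to WT 3, the only mice of both genotypes that shared a slide and a row, because the other 4 KO mice filled row 1 of slide 1.

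The site with the smallest unadjusted p among those higher in KO was ASMM10m6ADRACA1000941934, which did not pass. Its ratio was -2.97, -2.73, -3.18, -3.25 and -2.95 in KO and -2.93, -4.29, -4.34, -4.13 and -4.35 in WT. WT 1 lay among the KO mice, and the other 4 WT mice lay below all of them (difference 0.99, SE 0.26, limma adjusted p = 0.247). Its input overlapped between genotypes (difference 0.04, SE 0.09, limma adjusted p = 0.837), and Cy5 was detected in 5 of 5 KO mice and in 2 of 5 WT mice, so the size of the difference is not a measured fold. With normexp and an offset of 50 the difference was -0.16.

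In the other direction the smallest unadjusted p was that of ASMM10m6ADRACA1003640704, which did not pass either. Its ratio was -2.61, -2.30, -2.70, -2.72 and -2.79 in KO and -1.54, -2.02, -2.36, -0.92 and -1.69 in WT. The genotypes overlapped only through KO 2 and WT 3 (difference -0.92, SE 0.24, limma adjusted p = 0.247). Both channels were well above background in all 10 mice. This site stands near the limit, with a mean of -2.16, and was in the lowest 10% in 5 of 10 mice.

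The second comparison asked whether the modified RNA itself differed between genotypes. It rose in KO at 9 low-ratio sites (0.902%) and fell at 0, beside 1.14% of the 10076 probes tested, which were 0.208% higher and 0.933% lower; levels are relative to the 75th percentile of an array. At 7 of these 9 sites Cy5 was detected in all 5 KO mice and in only 1 to 3 WT mice, so they met the detection minimum largely through the genotype in which they are high, and nothing is read from their count against the background. Without the filter on dim probes the count was 0. At an unadjusted p under 0.05, 326 low-ratio sites (32.7%) were higher in KO, beside 9.40% of all probes, and 8 (0.802%) were lower, beside 6.85%. Together these were 33.5% of the low-ratio sites and 16.2% of all probes. Values did not overlap at 59 sites higher in KO (5.91%, beside 1.97%) and at 2 lower (0.200%, beside 1.89%).

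These calls depended on single mice. The count was 0 without KO 1, KO 2 or KO 5 and 0 without WT 2, WT 3 or WT 4, it was 1 without WT 1 and 5 without WT 5, and it was 7 and 11 without KO 3 and KO 4. Over all probes the share called ran from 0% to 1.44% in these settings. The filter on detection touches this comparison, since 501 of the sites were detected in more KO than WT mice and 74 only just met the minimum of 5 arrays. When only probes detected in Cy5 on every array were tested, 13 of 479 low-ratio sites passed, all higher in KO, beside 0.605% higher and 2.72% lower of the 5955 probes then tested. Only 2 of these 13 were among the 9. The median change of the 479 sites was 0.47. The count was 10 within slide 1, with 9 higher and 1 lower in KO, beside 0.208% higher and 3.52% lower of all probes. It was 8 when slide was a block, all higher, beside 0.159% higher and 3.58% lower. In each of these settings 5 of the 9 sites were called. With a block for slide and array row it was 0, beside 0.0695% of all probes lower in KO, and without KO 1 and KO 2 together it was 0, beside 0.00992% lower.

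The level of the modified RNA at these sites was higher in some KO mice than in others. The median scaled Cy5 of the 998 sites was -1.52, -1.19, -2.02, -1.89 and -1.57 in KO 1 to KO 5 and -2.06, -2.02, -1.96, -1.97 and -2.02 in WT 1 to WT 5. KO 2, KO 1 and KO 5 stood highest, KO 4 was just above the WT mice, and KO 3 lay among them. The median change over the sites was 0.46, against 0.08 over all probes, and 90.7% of the sites had a positive value, against 58.1%. The median was 0.21 without KO 1 and KO 2, -0.03 with normexp and an offset of 50, and -0.00 with a block for slide and array row. Whether array layout, the spread of an array or the detection of Cy5 accounts for the shift was not tested.

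The largest passing difference in modified RNA was at ASMM10m6ADRACA1001825764. Its scaled Cy5 was -2.28, -2.08, -3.15, -2.95 and -2.21 in KO and -3.49, -5.14, -3.18, -4.58 and -4.35 in WT. All KO values lay above all WT values, with KO 3 and WT 3 almost touching (difference 1.61, SE 0.35, limma adjusted p = 0.0467). Its Cy5 was detected in 5 of 5 KO mice and in 2 of 5 WT mice, so the 3.06-fold difference is not a measured fold. The input of the site rose as well (difference 0.96, SE 0.18, limma adjusted p = 0.0291), and its ratio did not pass (difference 0.57, SE 0.26, limma adjusted p = 0.552). With normexp and an offset of 50 the Cy5 difference was -0.023.

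ASMM10m6ADRACA1001096114 was next. Its scaled Cy5 was -2.22, -1.59, -2.91, -3.00 and -2.02 in KO and -3.53, -4.27, -3.12, -3.87 and -4.29 in WT. KO 4 was the lowest KO mouse and WT 3 the highest WT mouse, without overlap (difference 1.47, SE 0.31, limma adjusted p = 0.0414). Cy5 was again detected in 5 of 5 KO mice and in 2 of 5 WT mice. Its input rose too (difference 0.95, SE 0.18, limma adjusted p = 0.0313). At both sites the Cy5 call was lost when any 1 of KO 1, KO 2, KO 5 or a WT mouse was left out, and at ASMM10m6ADRACA1001825764 also without KO 3. Over all other settings run, the call held in only 4 at ASMM10m6ADRACA1001825764 and in 6 at ASMM10m6ADRACA1001096114.

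At all 9 sites the KO values lay above the WT values. With Cy5 detected in only 1 to 3 WT mice at 7 of them, the sizes are not summarised. The input change was positive at 9 of 9, from 0.44 to 1.19, beside 76.6% of all 998 sites, and passed at 6. None of the 9 passed for the ratio. Cy5 was detected in all 10 mice at 2 of them. No low-ratio site passed with lower Cy5 in KO; the smallest unadjusted p in that direction was again at ASMM10m6ADRACA1003640704. Its scaled Cy5 was -2.00, -1.65, -1.95, -1.90 and -1.87 in KO and -0.49, -1.51, -1.23, -0.34 and -1.36 in WT, with all KO values below all WT values (difference -0.89, SE 0.24, limma adjusted p = 0.0948).

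The third comparison asked whether the input RNA that carries the low-ratio sites differed between genotypes. In bulk tissue fewer cells of a type and less RNA per cell cannot be told apart. The input rose in KO at 17 sites (1.70%) and fell at 4 (0.401%), together 2.10% beside 1.66% of the 13940 probes tested. Among all probes 0.617% rose and 1.05% fell. At an unadjusted p under 0.05 the low-ratio sites split into 163 higher (16.3%, beside 6.87%) and 23 lower (2.30%, beside 13.1%), together 18.6% beside 19.9%. Values did not overlap at 49 higher (4.91%, beside 2.52%) and 8 lower (0.802%, beside 2.11%).

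The median change in input was 0.13 at the low-ratio sites and -0.06 over all probes tested. At the low-ratio sites it was 0.09 within slide 1 and -0.03 with a block for slide and array row. The sign over all probes depended on the scaling. With quantile normalization, the deposited table and spike-in scaling it was 0.02, 0.07 and 0.11, against 0.14, 0.25 and 0.31 at the low-ratio sites. In these 3 settings more of all probes were higher than lower in KO at an unadjusted limma p under 0.05 (1500 and 1188, 956 and 517, 1059 and 648). The scaled median over the sites was 1.40, 1.52, 1.27, 1.31 and 1.55 in KO 1 to KO 5 and 1.11, 1.29, 1.49, 1.20 and 1.16 in WT 1 to WT 5. WT 3 lay among the KO mice, and KO 3 lay below WT 2 and WT 3. Leaving out both mice numbered 3 raised the count of passing sites from 21 to 197, with 186 higher in KO (18.6%, beside 4.88% of all probes) and 11 lower (1.1%, beside 11.9%), and all 21 were among the 197. The count was 88 without WT 3 alone (8.82%, beside 7.39% of all probes) and 35 without KO 3 alone (3.51%, beside 4.18%). These shares were near the background only with both directions pooled. The 88 were 80 higher and 8 lower in KO, where all 13940 probes gave 381 higher and 649 lower. The 35 were 30 higher and 5 lower, where all probes gave 155 higher and 428 lower. The count was 8, 9, 13 and 5 without KO 1, KO 2, KO 4 and KO 5, and 10, 4, 5 and 13 without WT 1, WT 2, WT 4 and WT 5. These were 0.401% to 1.30% of the sites, beside 0.308% to 0.832% of all probes. Within slide 1 the count was 3 (0.301%, beside 0.187% of all probes), with a block for slide it was 4 (0.401%, beside 0.194%), and with a block for slide and array row it was 0, beside 0.0143%. Without KO 1 and KO 2 together 1 site passed, higher in KO, beside 0.0430% of all probes higher and 0.0215% lower.

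The largest rise in input was at ASMM10m6ADRACA1003123374, an abundant RNA at the 98.3rd percentile. Its scaled input was 6.06, 5.99, 6.32, 6.10 and 6.21 in KO and 4.94, 4.80, 5.19, 4.59 and 5.19 in WT. Every KO value lay above every WT value, a 2.28-fold difference on linear scale (log2 difference 1.19, SE 0.13, limma adjusted p = 0.00208). Its scaled Cy5 was 3.28, 3.41, 2.09, 2.37 and 2.40 in KO and 1.27, 1.43, 1.32, 1.28 and 2.06 in WT, also without overlap (difference 1.24, SE 0.28, limma adjusted p = 0.0499). Both channels were well above background in all 10 mice. The ratio was -2.33, -2.07, -3.98, -3.36 and -3.48 in KO and -3.29, -2.87, -3.63, -2.71 and -2.57 in WT, which overlapped fully (difference -0.03, SE 0.34, limma adjusted p = 0.985). The input call held in 24 of 25 other settings and was lost with a block for slide and array row, where the difference was 1.34 (SE 0.24, limma adjusted p = 0.192) and rested on KO 3 against WT 1 to WT 3.

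ASMM10m6ADRACA1000212754 had a scaled input of 1.30, 2.01, 1.1, 1.05 and 1.62 in KO and -0.09, 0.28, 0.56, -0.41 and 0.98 in WT. The groups were separated by the narrow gap between KO 4 and WT 5 (difference 1.15, SE 0.26, limma adjusted p = 0.0475). Among single mice left out, the call was lost without any 1 of KO 1, KO 2, KO 4, KO 5, WT 1, WT 2 or WT 4. Counting these omissions, it held in 9 alternative settings and was lost in 16. The losses included within slide 1 (limma adjusted p = 0.107), slide as a block (0.120), the deposited table (0.0846) and spike-in scaling (0.201). The Cy5 difference of the site, 1.44, did not pass (SE 0.35, limma adjusted p = 0.0647).

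The largest fall in input was at ASMM10m6ADRACA1000875554, the eighth lowest site by ratio, with an input at the 99.3rd percentile. Its scaled input was 5.90, 6.60, 6.23, 6.31 and 6.41 in KO and 7.75, 7.66, 7.51, 7.44 and 6.97 in WT. All KO values lay below all WT values, with a 2.26-fold difference on linear scale (log2 difference -1.18, SE 0.16, limma adjusted p = 0.0112). The call held when any 1 mouse was left out and was lost in 6 of 25 other settings, at limma adjusted p values from 0.0509 without KO 1 and KO 2 to 0.258 with a block for slide and array row, with differences from -1.41 to -0.70. Its scaled Cy5 was 2.46, 3.25, 0.77, 1.48 and 1.54 in KO and 2.11, 1.86, 1.27, 1.82 and 2.09 in WT, with KO 2 highest and KO 3 lowest (difference 0.07, SE 0.38, limma adjusted p = 0.944). The ratio was -3.00, -2.83, -5.22, -4.47 and -4.54 in KO and -5.26, -5.29, -6.01, -5.02 and -4.32 in WT. It did not pass (difference 1.17, SE 0.43, limma adjusted p = 0.419), and with an SD over mice of 1.01 it was among the most variable.

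ASMM10m6ADRACA1002717924 had a scaled input of -0.01, -0.58, -0.30, -0.51 and -0.05 in KO and 0.20, 0.96, 1.12, 0.61 and 0.74 in WT. The genotypes did not overlap, and WT 1 was closest to the KO mice (difference -1.02, SE 0.18, limma adjusted p = 0.0190). Among single mice left out, the call was lost without KO 2, WT 2 or WT 4. Counting these omissions, it held in 14 alternative settings and was lost in 11. The losses included within slide 1 (limma adjusted p = 0.119), slide as a block (0.0745), the deposited table (0.0965) and spike-in scaling (0.276). Cy5 of the site was detected in 4 of 5 KO mice and in 3 of 5 WT mice and did not pass (difference -0.74, SE 0.36, limma adjusted p = 0.319).

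**Figure D3:**
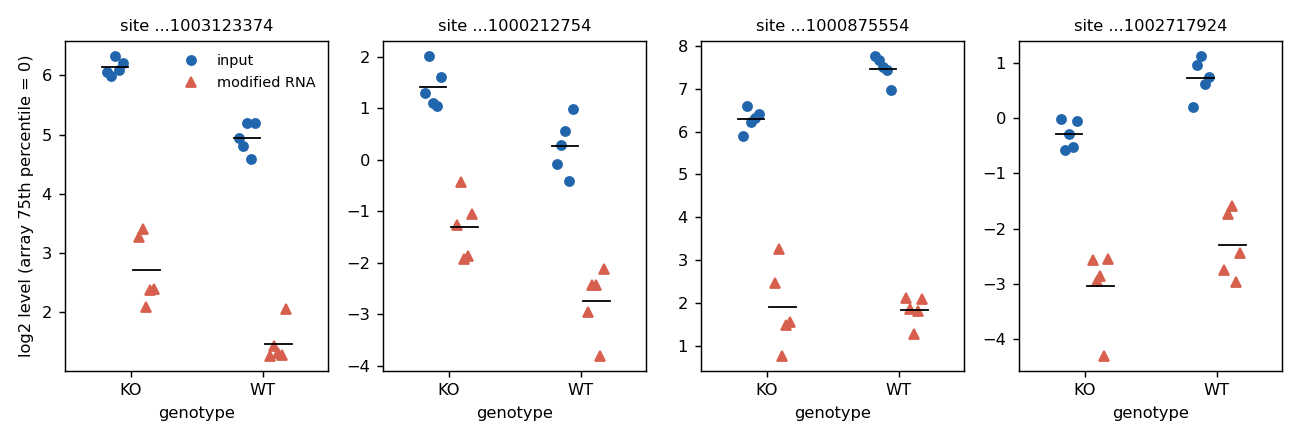
Scaled log2 level (array 75th percentile at 0) of input (blue circles) and modified RNA (orange triangles) in each KO and WT mouse at 4 low-ratio sites, with the group mean as a line. Input lies higher in KO at the first and second site (differences 1.19 and 1.15) and lower in KO at the third and the last (-1.18 and -1.02), and the vertical gap between colours follows the ratio.

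In the plot of the named sites the means of modified RNA differ in the same direction as those of input at the first, second and last site, though this passed only at the first. Over all 17 sites with higher input, the input changes ran from 0.47 to 1.19 with a median of 0.86, and the Cy5 change was positive at 17 of 17, with Cy5 detected in all 10 mice at 6. None passed for the ratio. At the 4 sites with lower input the input changes ran from -1.18 to -0.53, and the Cy5 change was negative at 3 of 4. The ratio change was positive at all 4, from 0.19 to 1.17, without passing. Over all 998 sites the change was positive at 90.7% for Cy5 and at 82.3% for the ratio. The ratio also has the input as its denominator, so nothing is read from these signs.

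**Figure D4:**
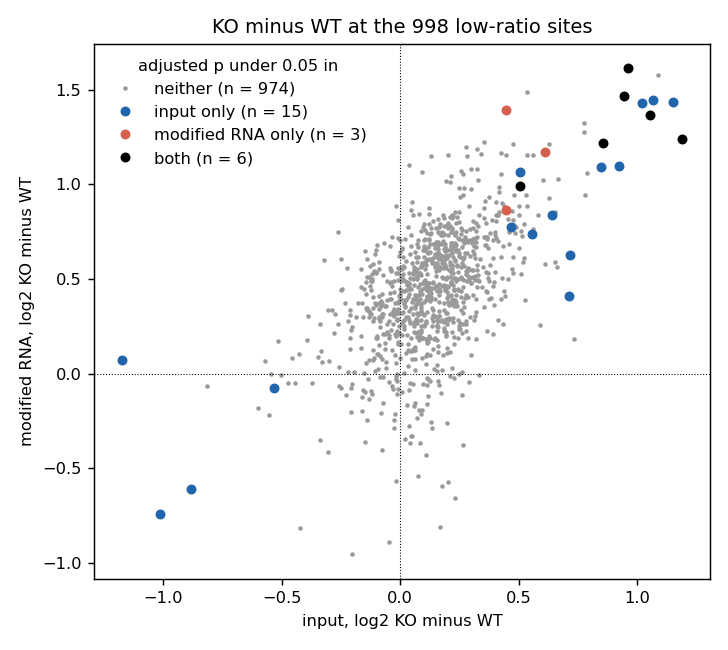
Log2 KO minus WT change of modified RNA (vertical) against that of input (horizontal) at the 998 low-ratio sites. Black points passed in both measures (6 sites), blue in input only (15), orange in modified RNA only (3) and grey in neither (974); most points lie above 0 on both axes.

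The plot of changes shows 90.7% of the sites above 0 for modified RNA and 76.6% for input. Both axes were scaled on the same arrays and are not independent.

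The genotype differences were set beside those of the rest of the ratio scale. Sorted into deciles of measured sites by mean ratio, the median Cy5 change fell step by step from 0.46 in the lowest decile through 0.34, 0.21, 0.13, 0.10, 0.03, -0.00, -0.06 and -0.09 to -0.34 in the highest. The median input change ran from 0.13 to -0.34, and that of the ratio from 0.26 to -0.05. Cy5 passed higher in KO at 9 sites in each of the 2 lowest deciles and at 1 site in each of the 3 next, and lower in KO at 47 sites in the highest decile. The low-ratio sites form 1 end of this gradient, and whether they differ from the next deciles was not tested. With a block for slide and array row the gradient took another shape, with Cy5 medians of -0.00 in the lowest decile, 0.22 in the sixth and -0.37 in the highest.

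**Figure D5:**
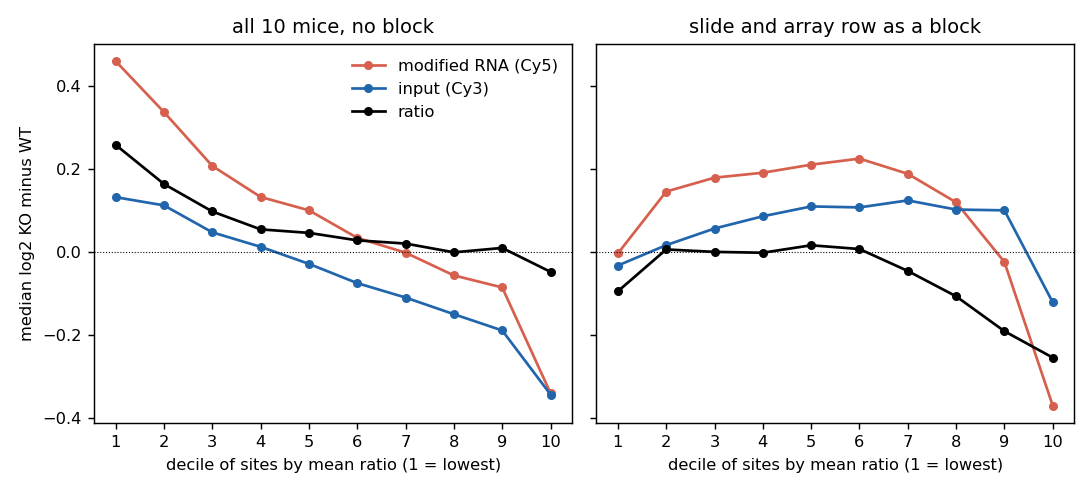
Median log2 KO minus WT change (vertical) of modified RNA, input and ratio in deciles of the 9983 measured sites ordered by mean ratio (horizontal, 1 is the lowest and holds the low-ratio sites). Without a block (left) Cy5 runs from 0.46 to -0.34; with a block for slide and array row (right), which rests on KO 3 against WT 1 to WT 3, it starts at -0.00 and ends at -0.37.

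The plot of changes by decile shows 3 falling lines on the left, while on the right the lines share no slope below the last deciles. Scaled levels are relative within an array, so these medians order the deciles and do not show that any decile kept a constant amount of RNA.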

How the data were processed

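The series lists 20 samples, the modified and the input RNA of 10 mice. The deposited scans of both fractions were identical for each mouse, so a mouse gave 1 array and counted once; the labels call the mice biological replicates. Spot intensity in the deposited files was extracted with Agilent Feature Extraction (11.0.1.1), as the submitters' processing notes record. Background subtraction and a dye normalization inside each array precede the processed signal used here, per the file headers. The authors' deposited value table covers 10004 probes on a log2 scale, and each column equals log2 of a channel's processed signal minus 1 constant of unstated origin.

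Flagged spots were dropped. Ratios were centred on each array's median over measured sites, and single channels were scaled to the array's 75th percentile over kept probes (detected on at least 5 arrays). Genotypes were compared by limma's lmFit and eBayes (version 3.58.1, R 4.3.3, two-sided), Benjamini-Hochberg adjusted over all m6A probes at a threshold of 0.05. The steps were tested on simulated data. Planted changes of 1 log2 unit passed at 45% of changed probes for the ratio, 47% for Cy5 and 84% for input. For changes of 2 log2 units the shares were 96%, 93% and 97%. The simulated noise was drawn separately for each probe and mouse. It held no shift shared by an array, slide or row and no undetected spots, so the shares do not cover these. The number of arrays limits the precision.

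Named sites follow a rule: the 3 lowest ratios, the 2 sites on either side of the limit, the 2 smallest and 2 largest SDs, the 2 brightest inputs, and per comparison the 2 largest passing non-overlapping changes in each direction, and the lowest unadjusted p for a direction in which under 2 passed. These sites and the rule were chosen with earlier results of these data known. Array row comes from the file headers, and a slide is inferred from a shared scan date in those headers. Slide 1 held all KO mice and WT 1 to WT 3, and slide 2 held WT 4 and WT 5. Row 2 of slide 1 held KO 3 and WT 1 to WT 3. Alternatives were other filters, scalings, background corrections (normexp on median spot signals, with offsets of 50 and 1), blocks, the deposited table and leaving out mice.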

Additional observations from a re-analysis of the deposited data

Results flagged for a closer look

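Of 56 groups of 5 mice examined, 4 held a mouse far from the other 4, and chance gives such a gap in about 5% of groups. At ASMM10m6ADRACA1003180534 the ratio of WT 3 was -2.70, with the nearest WT mouse at -1.88. At ASMM10m6ADRACA1000941934 the ratio of WT 1 was -2.93, with the nearest WT mouse at -4.13. At ASMM10m6ADRACA1002717924 the ratio of KO 4 was -3.42, with the nearest KO mouse at -2.31. The median ratio over the 998 sites was -3.04 in WT 3, with the nearest WT mouse at -2.72.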

How the results depend on the processing

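Membership was 973 to 988 of 998 shared when 1 mouse was left out, 479 with detection required on all arrays (only 479 of the sites were then measured) and 644 with normexp at an offset of 50. Without a filter on dim probes 798 of the 998 stayed, and they made up 55.8% of the 1431 sites then chosen. The ratio count was 0 in every setting run, leaving out each mouse included. For modified RNA (9 sites) the count was 0 without a filter on dim probes, 1 and 2 with normexp at offsets of 50 and 1, 0 with spike-in scaling, 4 with the percentile over probes detected on all arrays, 0 to 11 when 1 mouse was left out, 5 without both mice numbered 3, 0 without KO 1 and KO 2 and 0 with a block for slide and array row. For input (21 sites) it was 6 with normexp at an offset of 50, 3 in the deposited table, 1 with spike-in scaling, 4 with slide as a block, 3 within slide 1, 4 to 88 when 1 mouse was left out, 197 without both mice numbered 3, 1 without KO 1 and KO 2 and 0 with a block for slide and array row. With the replicate number as a block the counts were 0 for modified RNA and 1 for input. Correlations between same-numbered KO and WT mice ran from -0.25 to 0.21, with the highest for the ratio of the mice numbered 3. The number was not treated as a pairing in the main fits, and these correlations cannot settle whether the mice were paired. With normexp at an offset of 50, ASMM10m6ADRACA1000941934 had a ratio difference of -0.16 and ASMM10m6ADRACA1001825764 a Cy5 difference of -0.023. The settings scaled to a common spread, without pairs of mice, and with array row as a block were chosen after seeing the data. Why the counts changed was not tested. At 519 of the 998 sites at least 1 array was not well above background in both channels.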
